A study of Rattus norvegicus with 12 samples.

Results

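The genes described here run the folding, quality control and export of secreted proteins in the endoplasmic reticulum (ER), in NRK-52E cells, an established line of rat kidney tubular epithelium. They are 41 genes named by symbol for their known roles in ER folding, ER-associated degradation, translocation, vesicle coating and stress sensing. The set was chosen with earlier results of these data known, so its share of calls is not independent of them. All 41 were found among the 24660 genes of the deposited count table, and all 41 passed the filter on low counts, as did 14184 genes in all. One ER-secreted factor, Manf, was left out of the set for unstable counts. RNA was sequenced from 12 cultures in 4 groups of 3, all of wild-type genotype per the labels. The first group received TGF-beta1 and then 3D-EVs, the second TGF-beta1 and then 2D-EVs, the third TGF-beta1 alone, and the fourth was the untreated control. The labels give TGF-beta1 as 10 µg/ml over 24 h, a dose whose unit is in doubt, and extracellular vesicles (EVs) as 500000000 particles/ml over another 48 h. The study asked how vesicles from a conventional (2D) and from a 3D preparation compare as treatments of a fibrosis-like state that TGF-beta1 induces. No source used here says which cells made the vesicles, at what time the groups without vesicles were harvested, or whether TGF-beta1 stayed in the medium. Nothing in the labels says that replicates came from separate experiments, so p-values measure only how these samples vary, and that variation may be technical.

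Secreted and membrane proteins enter the ER through the Sec61 translocon, are folded there by the chaperone BiP (Hspa5) with its co-chaperones, by the sugar-binding chaperones calreticulin and calnexin, and by enzymes that form disulfide bonds, and then leave in COPII-coated vesicles. Chains that fail to fold are handed back to the cytosol for ER-associated degradation (ERAD). When unfolded chains build up, the membrane sensors ATF6, IRE1 (Ern1) and PERK (Eif2ak3) start the unfolded protein response. ATF6, and the factor made from Xbp1 mRNA after IRE1 has spliced it, bind short promoter elements of chaperone and ERAD genes. In kidney tubular cells TGF-beta1 is known for raising the synthesis of extracellular matrix, which passes through this same route.

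The 12 libraries held 32888125 to 39754319 counts. Mitochondrially encoded genes took 5.51% to 5.58% of counts in 3D-EV cells, 5.40% to 5.58% in 2D-EV cells, 5.31% to 5.54% in TGF-beta1 cells and 5.46% to 5.58% in control cells. The 41 members together took 2.11% to 2.16% of counts in 3D-EV cells, 2.11% to 2.15% in 2D-EV cells, 2.11% to 2.19% in TGF-beta1 cells and 2.00% to 2.02% in control cells. The line showed Krt8 at 34718 to 46419 counts a library, whereas the epithelial markers Pax2 and Epcam were at 0 in every library, Krt18 at 0 in 11 of 12, and Cdh1 at 2 to 30 counts. Most of the 12 measured tubular markers thus had few or no counts. A count of 0 in the table does not by itself show that a gene was silent in the cells. Of 7 immune markers, 5 were at 0 in every library, Ptprc among them, and the list summed to at most 4.56 CPM (counts scaled to a common library size and by TMM factors) in any library. The 5 endothelial markers summed to at most 1.54 CPM in any library. The 6 fibroblast and pericyte markers summed to 159 to 162 CPM in 3D-EV cells, 157 to 165 CPM in 2D-EV cells, 142 to 160 CPM in TGF-beta1 cells and 211 to 224 CPM in control cells. Of these, Dcn and Pdgfra held at most 10 counts a library and Col14a1 most of the sum. The 5 plasma cell markers, listed because such cells secrete heavily, summed to 315 to 332 CPM in 3D-EV cells, 323 to 333 CPM in 2D-EV cells, 313 to 317 CPM in TGF-beta1 cells and 268 to 280 CPM in control cells, nearly all of it Sdc1, while Mzb1 held at most 5 counts a library. The 12 tubular markers, nearly all Krt8, summed to 1159 to 1202 CPM in 3D-EV cells, 1175 to 1209 CPM in 2D-EV cells, 1188 to 1268 CPM in TGF-beta1 cells and 1027 to 1046 CPM in control cells. The fibroblast sum was thus lower, and the tubular and plasma cell sums higher, in every group that received TGF-beta1 than in control cells. Each sum followed its most abundant gene, and other markers did not all move with it. In TGF-beta1 cells against control cells, Aqp1 was lower among the tubular markers (log2 fold change -0.40, edgeR adjusted p = 0.0245). Pdgfrb of the fibroblast list averaged 21.3 CPM in TGF-beta1 cells and 18.8 CPM in control cells without being called (edgeR adjusted p = 0.142). Prdm1 of the plasma cell list was higher, as was its sum, by 3.84-fold at a low level (2.64 CPM in TGF-beta1 cells, 0.683 CPM in control cells, edgeR adjusted p = 0.000178). The part of these shifts in the members' values was not tested.

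The promoter elements through which ATF6 and XBP1 act are shown because the sensors are known to control chaperone genes by them. Of the 41 members, 32 had at least 1 entry in the RefSeq promoter table (build GRCr8, 250 bases before to 50 bases after the gene start). Each was searched on both strands for the ER stress element (ERSE: CCAAT, any 9 bases, CCACG), for ERSE-II (ATTGG, any 1 base, CCACG) and for the unfolded protein response element (UPRE: TGACGTGG). ERSE was found for 9 of the 32 members, against 22 of all 33469 rat promoters (0.0657%), and ERSE-II for 3, against 17 of all promoters (0.0508%). UPRE was found for 2 members, Hyou1, where it overlaps an ERSE-II, and Sec23a, against 199 of all promoters (0.595%). The shares of all promoters count promoter entries, those of the members among them, while members are counted as genes. Since the elements are known from chaperone genes, a high share among the members is no independent result. The matched elements follow in their own direction, 5′ to 3′, with the fixed ends in capitals.
Hspa5, ERSE: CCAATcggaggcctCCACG
Calr, ERSE: CCAATcagggtcgaCCACG
Dnajc3, ERSE: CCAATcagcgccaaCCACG
Hsp90b1, ERSE: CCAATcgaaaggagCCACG
Hsp90b1, ERSE: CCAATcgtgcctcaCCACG
Canx, ERSE: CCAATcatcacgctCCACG
Xbp1, ERSE: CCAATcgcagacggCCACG
Creld2, ERSE: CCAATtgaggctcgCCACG
Derl3, ERSE: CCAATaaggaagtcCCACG
Ero1b, ERSE: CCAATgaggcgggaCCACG
Dnajb11, ERSE-II: ATTGGcCCACG
Hyou1, ERSE-II: ATTGGcCCACG
Hyou1, ERSE-II: ATTGGgCCACG
Herpud1, ERSE-II: ATTGGgCCACG

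The 250 bases before the start of Hspa5, the gene of BiP, lie at chr3:38452766-38453015 of GRCr8 on the + strand, with the ERSE in capitals beginning 43 bases before the start. Those of Creb3l1, the member with the largest change after TGF-beta1 and with no match to any of the 3 elements, lie at chr3:98449105-98449354 on the - strand. A match is a description of letters, and its absence says only that the letters are not in this window.
Hspa5: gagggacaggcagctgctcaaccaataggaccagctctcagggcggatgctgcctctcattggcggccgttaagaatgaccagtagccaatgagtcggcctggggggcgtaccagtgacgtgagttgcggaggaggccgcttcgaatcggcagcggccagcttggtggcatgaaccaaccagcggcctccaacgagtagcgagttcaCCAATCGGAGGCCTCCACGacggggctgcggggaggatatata
Creb3l1: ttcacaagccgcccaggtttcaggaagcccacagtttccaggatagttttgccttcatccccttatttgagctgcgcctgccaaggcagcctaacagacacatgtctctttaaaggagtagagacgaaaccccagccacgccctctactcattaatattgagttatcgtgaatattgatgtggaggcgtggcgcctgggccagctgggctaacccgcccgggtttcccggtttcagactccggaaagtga

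Genes of every step of the route, from the translocon to the COPII coat, were higher after TGF-beta1. Of the 41 members, 21 were higher in TGF-beta1 cells than in control cells, 0 were lower and 20 did not pass the test (edgeR quasi-likelihood F-test, Benjamini-Hochberg adjusted p below 0.05). Over all 14184 genes tested, 11.8% were higher and 10.2% lower. The median standard error (SE) of the log2 fold change over all genes was 0.078, larger than that of every called member except Pdia5. Smaller changes could thus be called in these members than in a typical gene. The median absolute log2 fold change of all called genes was 0.28. How far this precision accounts for the members' share was not tested. Apart from Creb3l1, a transcription factor of the ER membrane (2.11-fold), the called members were higher by small amounts, between 0.10 for Pdia3 and 0.30 for Dnajb11 on the log2 scale. The median log2 fold change of the 41 members was 0.12, beside a median of -0.0050 over all genes tested. The CPM ranges of the 2 groups did not overlap for 26 members that were higher in TGF-beta1 cells and for 1 that was lower (Pdia6), against 19.1% and 18.9% of all genes. At an unadjusted p below 0.05, 22 members were higher and 1, Pdia6, lower, among 4685 of all 14184 genes in either direction. DESeq2 and limma-voom also called 0 members lower. In bulk RNA, a change in the share of cells that express a gene and a change of its RNA per cell cannot be told apart. Of the 21 calls, 12 were kept in all 13 alternative analyses, and 9 were lost in at least 1 (Pdia3, Pdia5, Dnajc3, Hyou1, Derl1, Sec24d, Sec23b, Ero1a and Fkbp10). Leaving out 1 library in turn gave 14 to 19 members higher, with 14 without TGF-beta1 replicate 3.

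**Figure D1:**
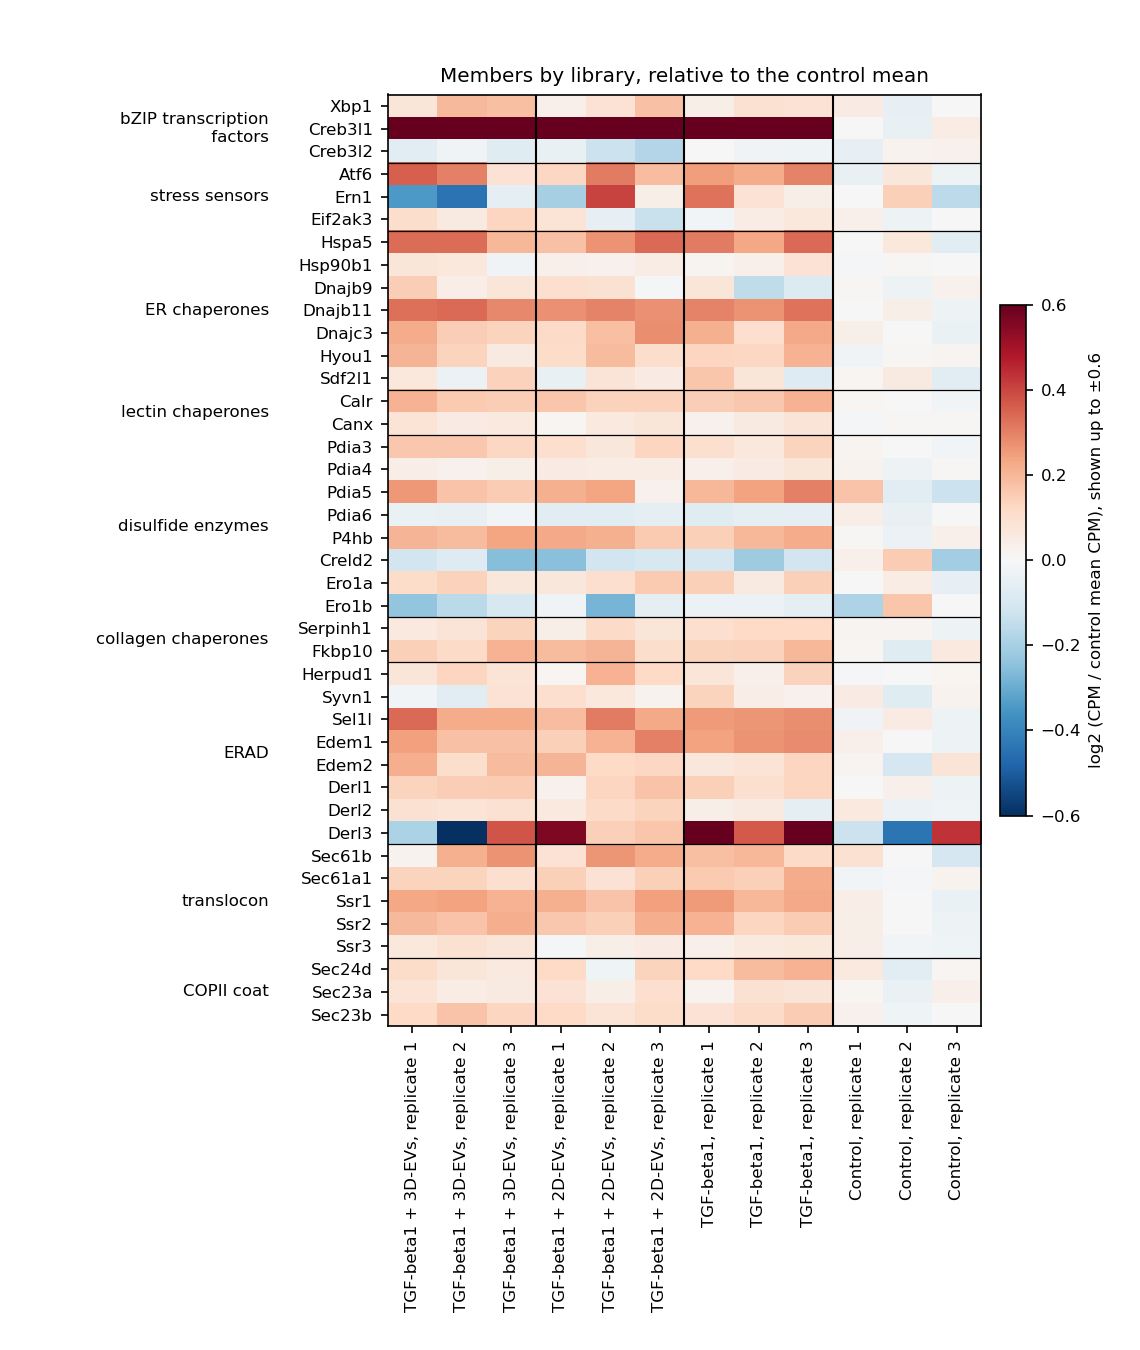
Levels of the 41 members in each library, as log2 of CPM over the mean CPM of the control libraries, with genes grouped by role and colour limited to 0.6 either way. Creb3l1 sits at the upper limit in all 9 libraries that received TGF-beta1, and Hspa5, Dnajb11, Sel1l, Edem1 and Ssr1 are in red tones in all of them.

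**Figure D2:**
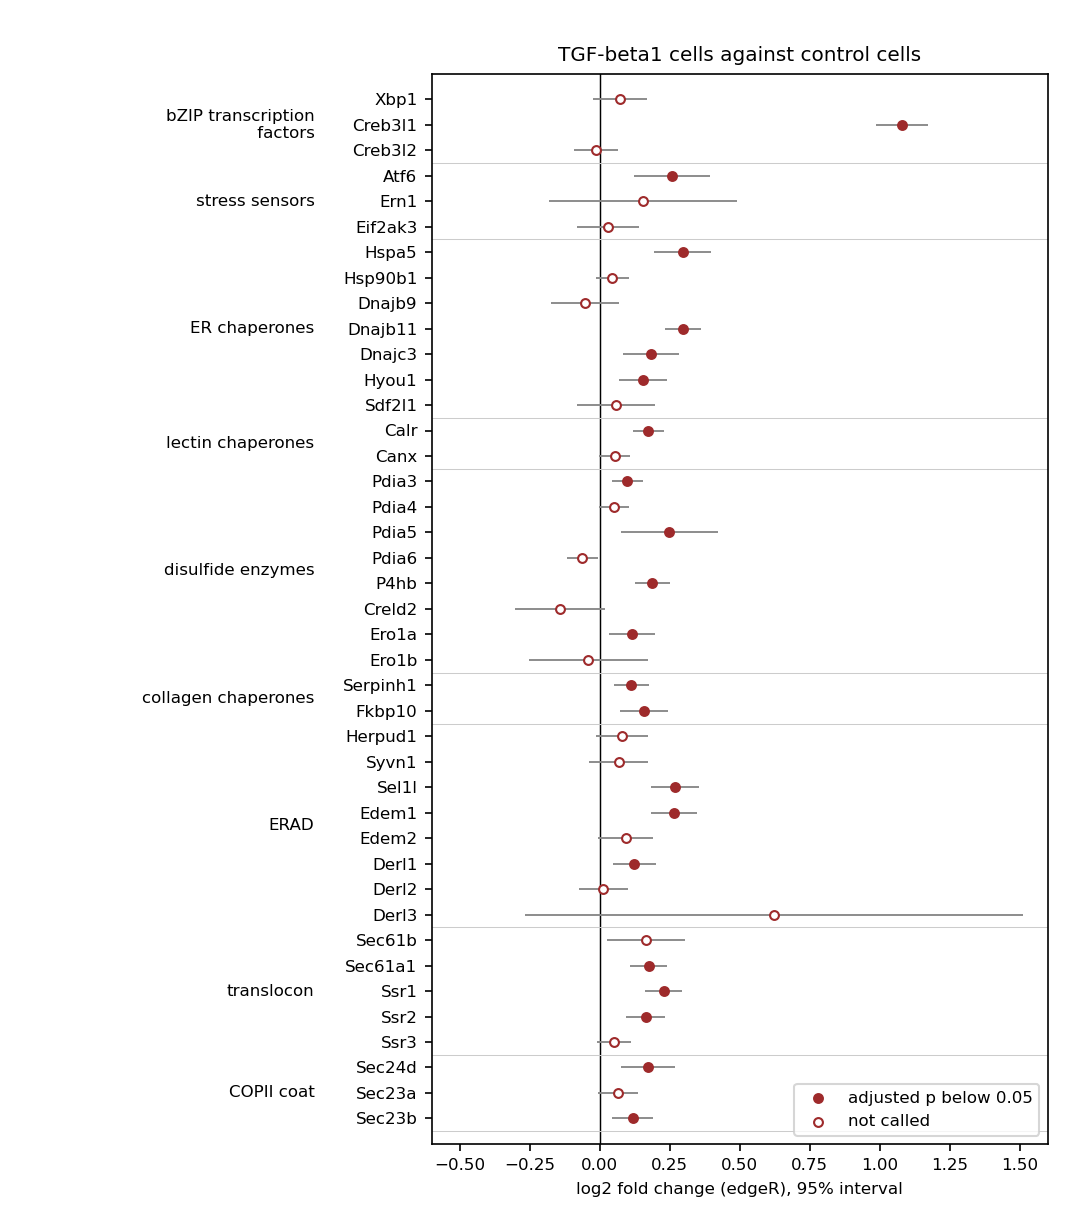
Log2 fold changes of TGF-beta1 cells against control cells from edgeR, with 95% intervals, for the 41 members by role. Filled points mark the 21 members with an adjusted p below 0.05, all to the right of 0, and open points the 20 that were not called.

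Among the bZIP transcription factors, 1 of 3 was higher in TGF-beta1 cells and 0 were lower. Creb3l1 encodes OASIS, a factor anchored in the ER membrane and released by cleavage, which in mouse bone is needed for type I collagen expression. It measured 81.2, 87.5 and 83.4 CPM in TGF-beta1 cells, against 39.7, 38.5 and 41.02 CPM in control cells. Every TGF-beta1 library held a higher CPM than every control library, and the groups were far apart (2.11-fold, log2 fold change 1.08, SE 0.044, edgeR adjusted p = 8.69e-10). Its relative Creb3l2, which in mouse cartilage drives the secretory route, averaged 153 ± 1.41 CPM in TGF-beta1 cells and 154 ± 4.47 CPM in control cells (SD, n = 3 each), with overlapping groups and an adjusted p of 0.833. Xbp1 averaged 95.9 ± 1.997 CPM in TGF-beta1 cells and 91.3 ± 3.23 CPM in control cells and was not called (adjusted p = 0.296). Counts per gene do not separate spliced from unspliced Xbp1 mRNA, so the activity of IRE1 cannot be read from them.

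Of the 3 stress sensors, Atf6 was higher in TGF-beta1 cells, and Ern1 and Eif2ak3 were not called. Atf6, whose protein moves to the Golgi under stress and is cut there into a transcription factor, stood at 92.5, 90.8 and 95.4 CPM in TGF-beta1 cells, against 75.4, 81.5 and 76.2 CPM in control cells. The groups did not overlap (log2 fold change 0.26, SE 0.063, edgeR adjusted p = 0.00807). Ern1 had few counts, 265, 230 and 227 counts in the TGF-beta1 libraries and 214, 230 and 195 counts in the control libraries. Its 95% interval for the log2 fold change, -0.18 to 0.49, holds both no change and the change seen for Atf6, so neither could be told from the other for Ern1 at this depth. Eif2ak3, the kinase that lowers translation under stress, averaged 51.3 ± 1.44 CPM in TGF-beta1 cells and 50.2 ± 1.01 CPM in control cells (SD, n = 3 each), with overlapping groups and an adjusted p of 0.746.

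BiP and its partners gave 4 of 7 ER chaperones higher in TGF-beta1 cells and 0 lower. Hspa5 measured 2701, 2553 and 2758 CPM in TGF-beta1 cells, against 2181, 2272 and 2076 CPM in control cells. Its lowest TGF-beta1 library lay above its highest control library (1.23-fold, log2 fold change 0.30, SE 0.048, edgeR adjusted p = 0.000375). Dnajb11, the BiP co-chaperone ERdj3 that binds unfolded chains, showed 222, 218 and 226 CPM in TGF-beta1 cells and 180.4, 185 and 177 CPM in control cells. Its estimate was close to that of Hspa5, with a smaller error (log2 fold change 0.30, SE 0.030, edgeR adjusted p = 5.85e-06). Dnajc3, another J-domain partner of BiP, had 102, 94.7 and 103 CPM with TGF-beta1, against 90.4, 88.3 and 85.9 CPM in control cells. The groups were separate for Dnajc3 too (log2 fold change 0.18, SE 0.047, edgeR adjusted p = 0.0113), but the call was lost without TGF-beta1 replicate 3, its highest library (adjusted p = 0.0523; 0.00229 to 0.0523 over the alternatives). Hyou1, which exchanges the nucleotide bound to BiP, had 323, 322 and 342 CPM in TGF-beta1 libraries, against 291, 297 and 298 CPM in control libraries. The difference (log2 fold change 0.15, SE 0.040, edgeR adjusted p = 0.0122) also fell short without TGF-beta1 replicate 3 (adjusted p = 0.0612; 0.00131 to 0.0612 over the alternatives).

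The 3 chaperone genes that were not called include Hsp90b1, whose product GRP94 folds integrins and Toll-like receptors. Hsp90b1 averaged 2017 ± 53.9 CPM in TGF-beta1 cells and 1955 ± 6.56 CPM in control cells (SD, n = 3 each; log2 fold change 0.045, 95% interval -0.016 to 0.11). That interval lies below the estimates for Hspa5 and Dnajb11. Dnajb9, the co-chaperone ERdj4, averaged 48.2 ± 3.85 CPM with TGF-beta1 and 49.9 ± 0.994 CPM without, with overlapping groups. Sdf2l1, a partner of ERdj3, averaged 48.3 ± 4.01 CPM in TGF-beta1 cells and 46.4 ± 2.01 CPM in control cells, again with overlap.

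Calreticulin and calnexin bind the same sugar signal on new glycoproteins, the first as a soluble protein and the second in the membrane. Calr had 2546, 2566 and 2655 CPM in TGF-beta1 cells, against 2314, 2300.5 and 2272 CPM in control cells, with no overlap. This difference passed the test (log2 fold change 0.17, SE 0.026, edgeR adjusted p = 0.000168). Canx averaged 1374 ± 25.6 CPM in TGF-beta1 cells and 1324 ± 8.78 CPM in control cells (SD, n = 3 each), and although its groups did not overlap it was not called (log2 fold change 0.053, adjusted p = 0.163). The difference between the 2 changes was not tested.

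Enzymes of disulfide formation were mixed: 4 of 8 were higher in TGF-beta1 cells and 0 were called lower. P4hb, protein disulfide isomerase and also a subunit of collagen prolyl hydroxylase, measured 2584, 2689 and 2737 CPM with TGF-beta1, against 2353, 2285 and 2393 CPM in control cells. It had the smallest adjusted p of the 8 (log2 fold change 0.19, SE 0.029, edgeR adjusted p = 0.000261). Pdia3, the isomerase that works with calreticulin and calnexin, had 1684, 1648 and 1729.6 CPM in TGF-beta1 cells and 1593, 1574 and 1560.0 CPM in control cells. Its groups did not overlap, but it was called by a narrow margin (log2 fold change 0.10, SE 0.027, edgeR adjusted p = 0.0148), with an adjusted p of 0.0506 without Control replicate 3 and 0.0663 without TGF-beta1 replicate 3, and 0.00236 to 0.0663 over the alternatives.

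Pdia5, another isomerase, had 21.6, 22.3 and 23.3 CPM with TGF-beta1 and 21.3, 18.1 and 17.3 CPM in control cells, where replicate 1 came close to the TGF-beta1 libraries. The call (log2 fold change 0.25, SE 0.081, edgeR adjusted p = 0.0397) was lost in 6 of 13 alternatives, with an adjusted p of 0.0615 with only the 2 groups in the fit, 0.1303 without Control replicate 2, 0.172 without Control replicate 3, 0.0551 without TGF-beta1 replicate 1, 0.0879 without TGF-beta1 replicate 2 and 0.119 without TGF-beta1 replicate 3 (0.007604 to 0.172 over all 13). Ero1a, the oxidase that recharges protein disulfide isomerase, had 210.4, 197 and 210.4 CPM in TGF-beta1 cells, against 191, 196 and 184 CPM in control cells. It was the weakest call of the 21 (log2 fold change 0.11, SE 0.038, edgeR adjusted p = 0.0428), its lowest TGF-beta1 library lay just above its highest control library, and it was lost in 7 of 13 alternatives, among them with an adjusted p of 0.0567 with no filter on low counts, 0.0572 with only the 2 groups in the fit, 0.0912 without Control replicate 1, 0.171 without Control replicate 3, 0.132 without TGF-beta1 replicate 1 and 0.137 without TGF-beta1 replicate 3 (0.0199 to 0.171 over the alternatives).

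Pdia6 and Creld2 had lower means in TGF-beta1 cells without being called. Pdia6, an isomerase also found bound to BiP, had 1105, 1113 and 1117 CPM in TGF-beta1 cells, against 1193, 1127 and 1163 CPM in control cells. All 3 TGF-beta1 libraries lay just below the lowest control library, but the difference was not called (log2 fold change -0.063, adjusted p = 0.101), except without Control replicate 2 (adjusted p = 0.0448; 0.0448 to 0.358 over the alternatives). Creld2, known to respond to ER stress in mouse cells, had 77.4, 71.6 and 76.6 CPM with TGF-beta1, against 84.9, 92.3 and 72.01 CPM in control cells. The groups overlapped through Control replicate 3, and Creld2 was called lower without that library (adjusted p = 0.01904) but not with it (log2 fold change -0.14, adjusted p = 0.206; 0.01904 to 0.6497 over the alternatives). Pdia4 averaged 828 ± 12.8 CPM in TGF-beta1 cells and 799 ± 14.6 CPM in control cells, and Ero1b 10.3 ± 0.0793 CPM in TGF-beta1 cells and 10.6 ± 1.29 CPM in control cells, neither of them called.

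Both chaperones of collagen were higher in TGF-beta1 cells. Serpinh1 encodes HSP47, which binds folded procollagen and travels with it to the Golgi. It measured 1757, 1780.0 and 1784 CPM with TGF-beta1, against 1659, 1659 and 1605 CPM in control cells. The replicates of Serpinh1 were close, and a difference of 1.08-fold passed the test (log2 fold change 0.11, SE 0.029, edgeR adjusted p = 0.01102). Fkbp10, a proline isomerase of collagen folding, had 337, 337 and 352 CPM in TGF-beta1 cells and 308, 292 and 319 CPM in control cells. The groups did not overlap (log2 fold change 0.16, SE 0.040, edgeR adjusted p = 0.0103), and the adjusted p was 0.0511 without Control replicate 2, within 0.000891 to 0.0511 over the alternatives.

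In ER-associated degradation, 3 of 8 genes were higher in TGF-beta1 cells and 0 were lower. Sel1l, the membrane adaptor of the ubiquitin ligase HRD1, had 299, 301 and 304 CPM with TGF-beta1, against 247, 259 and 245 CPM in control cells. The 3 TGF-beta1 libraries were close to each other and above all control libraries (log2 fold change 0.27, SE 0.040, edgeR adjusted p = 0.000206). Edem1, which trims mannose from misfolded glycoproteins, had 187, 190.0 and 192 CPM in TGF-beta1 cells and 161, 158 and 155 CPM in control cells. Its change was of about the same size (log2 fold change 0.26, SE 0.039, edgeR adjusted p = 0.000173). Derl1, a channel protein of this route, had 233, 226 and 231 CPM with TGF-beta1, against 212, 216 and 207 CPM in control cells. Derl1 was called (log2 fold change 0.12, SE 0.036, edgeR adjusted p = 0.0232), with an adjusted p of 0.0598 without Control replicate 1, 0.0915 without Control replicate 3, 0.0706 without TGF-beta1 replicate 1 and 0.06202 without TGF-beta1 replicate 3 (0.00697 to 0.0915 over the alternatives).

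Syvn1, which encodes HRD1 itself, averaged 65.4 ± 2.75 CPM in TGF-beta1 cells and 62.4 ± 2.72 CPM in control cells (SD, n = 3 each) and was not called (adjusted p = 0.378). Herpud1, an organiser of the HRD1 complex and a common readout of ER stress, averaged 155 ± 5.81 CPM with TGF-beta1 and 146 ± 0.852 CPM in control cells (log2 fold change 0.079, adjusted p = 0.2295). Its groups did not overlap, yet the difference did not pass. Edem2 and Derl2 averaged 103 ± 2.396 CPM and 67.1 ± 2.696 CPM in TGF-beta1 cells, and 96.5 ± 5.95 CPM and 66.5 ± 2.42 CPM in control cells, with overlap. Derl3 had only 24, 20 and 28 counts in TGF-beta1 libraries and 14, 11 and 21 counts in control libraries, and its 95% interval for the log2 fold change ran over -0.27 to 1.51, and it overlaps Smarcb1 in the annotation, from which reads may be shared.

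At the translocon, 3 of 5 genes were higher in TGF-beta1 cells and 0 were lower. Sec61a1, which forms the pore, had 331, 328 and 346 CPM with TGF-beta1, against 294, 295 and 301 CPM in control cells (log2 fold change 0.17, SE 0.031, edgeR adjusted p = 0.000723). Ssr1, the alpha subunit of the translocon-associated protein complex TRAP, had 465, 447 and 455 CPM in TGF-beta1 cells and 400.0, 389 and 379 CPM in control cells. It had the largest change of the 5 (log2 fold change 0.23, SE 0.030, edgeR adjusted p = 7.04e-05). Ssr2, the beta subunit, had 360.2, 341 and 346 CPM with TGF-beta1, against 319, 311 and 305 CPM in control cells, without overlap (log2 fold change 0.16, SE 0.032, edgeR adjusted p = 0.00191). The gamma subunit Ssr3 averaged 267 ± 2.87 CPM in TGF-beta1 cells and 258 ± 5.94 CPM in control cells (SD, n = 3 each) and was not called, so a call was made for 2 of the 3 measured TRAP subunits. Sec61b, which sits beside the pore, averaged 80.97 ± 2.44 CPM with TGF-beta1 and 72.3 ± 4.87 CPM in control cells. Its estimate was close to those of Sec61a1 and Ssr2 with a wider error (log2 fold change 0.16, adjusted p = 0.0908), and it was called by DESeq2 (adjusted p = 0.0482) and with only the 2 groups in the fit (adjusted p = 0.0384; 0.0384 to 0.303 over the alternatives).

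Of the COPII coat genes, 2 of 3 were higher in TGF-beta1 cells and 0 were lower. Sec24d selects cargo and is needed for collagen export in fish and humans. It had 187, 197 and 199 CPM with TGF-beta1, against 179, 164 and 174 CPM in control cells (log2 fold change 0.17, SE 0.045, edgeR adjusted p = 0.0117). The groups were separate, with Control replicate 1 nearest to the TGF-beta1 libraries, and the adjusted p was 0.05898 without Control replicate 2, within 0.00141 to 0.05898 over the alternatives. Sec23b, its partner in the inner coat, had 79.4, 81.1 and 83.1 CPM in TGF-beta1 cells and 76.1, 73.6 and 74.8 CPM in control cells. The call was narrow (log2 fold change 0.12, SE 0.034, edgeR adjusted p = 0.02201), with an adjusted p of 0.0571 with no filter on low counts, 0.0829 without Control replicate 2, 0.05697 without Control replicate 3, 0.0638 without TGF-beta1 replicate 2 and 0.1002 without TGF-beta1 replicate 3 (0.0197 to 0.1002 over the alternatives). Sec23a averaged 123 ± 3.13 CPM with TGF-beta1 and 118 ± 2.99 CPM in control cells (SD, n = 3 each), with overlap and an adjusted p of 0.196. Pdia3, Creld2, Syvn1, Sec23a and Sec23b each overlap another gene of the count table. The strand handling of the counting is not given in the sources used here, so some reads of these members may be those of the neighbour. Median counts of neighbour and member were 115 and 58168.5 for Pdia3, 700 and 2699.5 for Creld2, and 1743.5 and 2277.5 for Syvn1. They were 508 and 4262.5 for Sec23a, and 756.5 and 2773.5 for Sec23b. How many reads were shared was not tested.

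**Figure D3:**
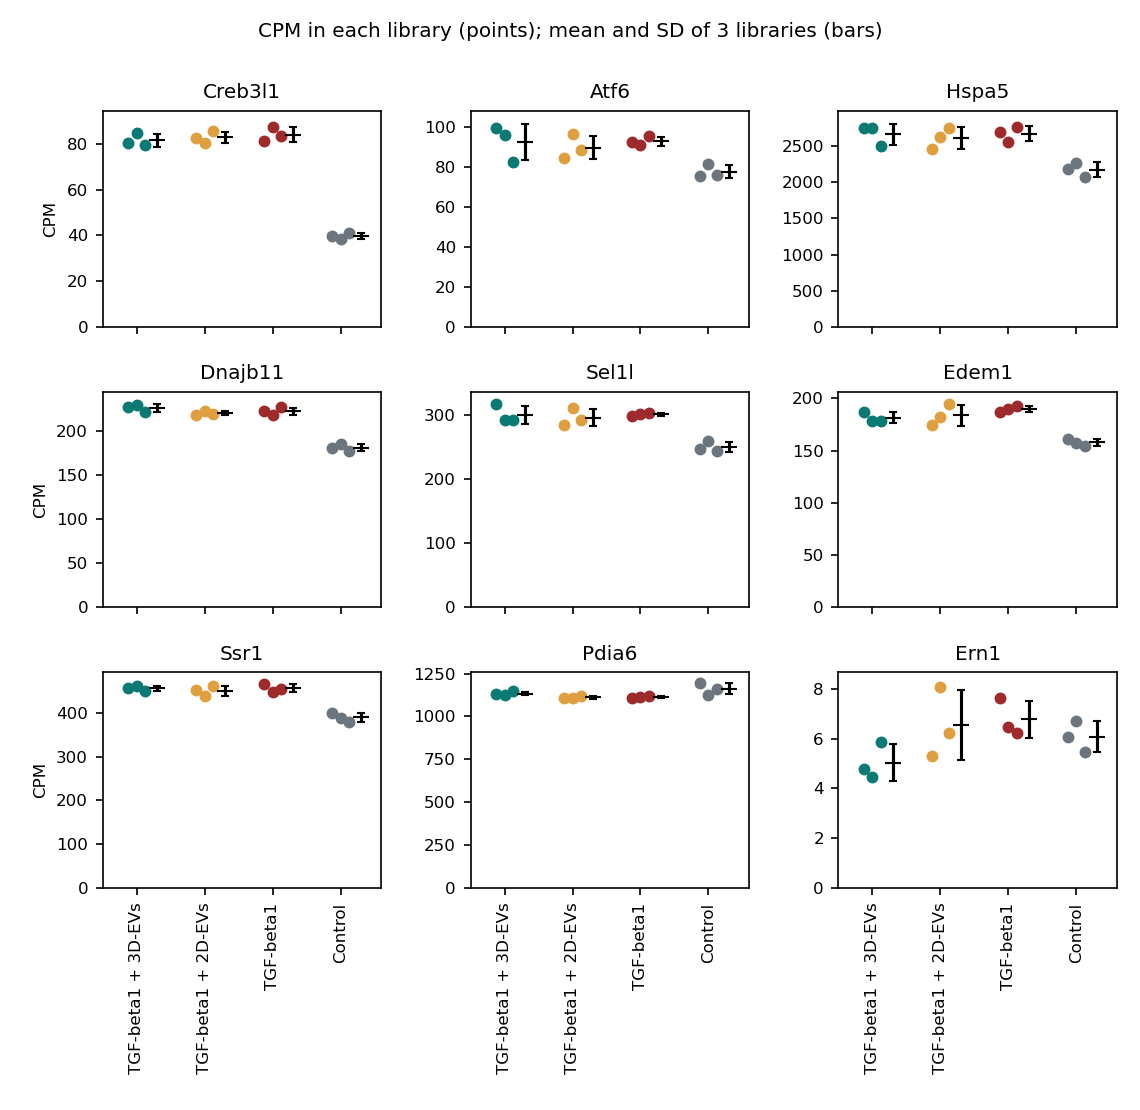
CPM of 9 members in every library (points), with the mean and SD of the 3 libraries of each group beside them and axes from 0. Creb3l1 is higher in the 3 groups that received TGF-beta1, Atf6, Hspa5, Dnajb11, Sel1l, Edem1 and Ssr1 are moderately higher in them than in control cells, Pdia6 is nearly level, and Ern1 is low with wide scatter.

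Called members were found both with and without an exact match to a stress element in the promoter. Of the 12 members with an ERSE or ERSE-II, 5 were higher in TGF-beta1 cells (Hspa5, Calr, Dnajb11, Dnajc3 and Hyou1) and 7 were not called (Hsp90b1, Canx, Xbp1, Creld2, Derl3, Ero1b and Herpud1). Of the 19 members with a promoter entry and none of the 3 elements, 9 were higher, Creb3l1, Sel1l, Edem1, P4hb and Ssr1 among them. Of the 9 members without an entry, 7 were higher. Median log2 fold changes were 0.12 for the 12 with an ERSE or ERSE-II, 0.11 for the 19 with none and 0.15 for the 9 without an entry. Hsp90b1 had 2 exact ERSE matches and a log2 fold change of 0.045, while Hspa5 had 1 and a log2 fold change of 0.30. Imperfect copies of the elements were not searched for, so the matches are not counts of working elements. These counts describe the members and were not tested.

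**Figure D4:**
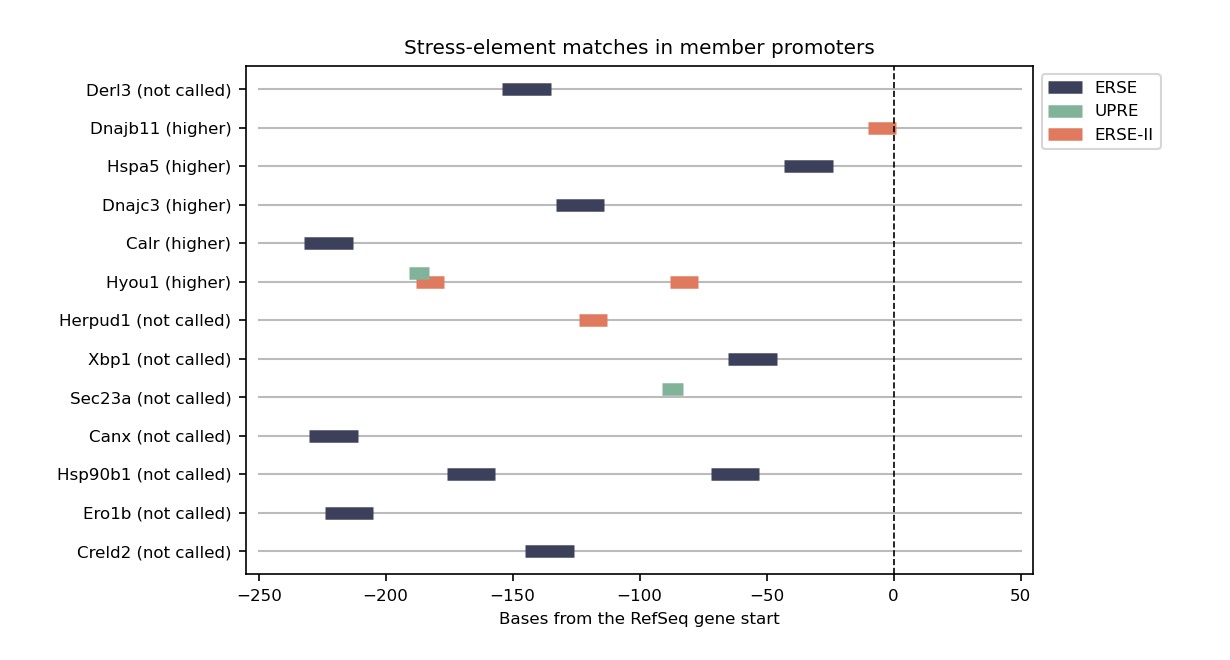
Positions of ERSE, ERSE-II and UPRE matches in the RefSeq promoters of the 13 members that hold any, in bases from the gene start, with members ordered by their log2 fold change in TGF-beta1 cells against control cells (highest at the top). Members called higher and not called both hold elements, between 232 bases before the start (Calr) and the start itself (Dnajb11).

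Of 148 further ER and early secretory genes listed by role, 141 were in the table and 137 were tested: 52 were higher in TGF-beta1 cells, 6 were lower and 79 were not called, with a median log2 fold change of 0.10. Over all genes tested, 11.8% were higher and 10.2% lower, with a median log2 fold change of -0.0050. Among other folding enzymes, 16 of 29 were higher and 1 was lower. Tmx1, a thioredoxin-like enzyme of the ER membrane, averaged 549 ± 10.9 CPM in TGF-beta1 cells and 429 ± 5.39 CPM in control cells (SD, n = 3 each; log2 fold change 0.36, adjusted p = 6.01e-07). Prkcsh, a subunit of the glucosidase that trims new glycans, averaged 541 ± 8.97 CPM in TGF-beta1 cells and 456 ± 4.105 CPM in control cells (log2 fold change 0.25, adjusted p = 1.30e-05). Prdx4, an ER peroxiredoxin, was the 1 that fell (log2 fold change -0.12, adjusted p = 0.0287). Of 23 other ERAD genes, 6 were higher, led by the mannosidase Man1b1 (log2 fold change 0.27, adjusted p = 0.000473) and the signal peptide peptidase Hm13 (log2 fold change 0.19, adjusted p = 0.000572), and 0 were lower.

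Of 33 other genes of the translocon, signal peptidase and oligosaccharyltransferase, 10 were higher in TGF-beta1 cells and 3 were lower, against 11.8% and 10.2% of all genes. Sec11c, a catalytic subunit of signal peptidase, averaged 76.9 ± 2.33 CPM in TGF-beta1 cells and 47.1 ± 2.99 CPM in control cells (SD, n = 3 each; log2 fold change 0.71, adjusted p = 1.98e-07), and Creb3l1 was the only member with a larger estimate in this comparison. Ddost, an oligosaccharyltransferase subunit, was higher (log2 fold change 0.16, adjusted p = 0.00103), whereas Magt1 (log2 fold change -0.19, adjusted p = 0.00222), an oxidoreductase subunit of the same enzyme, and Spcs2 (log2 fold change -0.17, adjusted p = 0.00238), a signal peptidase subunit, were lower. Among COPII and early secretory genes, 14 of 32 were higher, led by the cargo receptors Tmed9 (log2 fold change 0.29, adjusted p = 1.10e-05) and Lman2 (log2 fold change 0.19, adjusted p = 0.000279), and 1 was lower, Ergic1 (log2 fold change -0.17, adjusted p = 0.00384). Of 20 other sensor and signalling genes, 6 were higher and 1 was lower. Wfs1, an ER membrane protein of calcium balance, averaged 122 ± 0.755 CPM in TGF-beta1 cells and 80.5 ± 2.36 CPM in control cells (log2 fold change 0.60, adjusted p = 2.98e-08). Atf6b, the relative of Atf6, was higher as well (log2 fold change 0.29, adjusted p = 0.000118), and Crebrf, a regulator that promotes the breakdown of CREB3, was lower (log2 fold change -0.44, adjusted p = 0.000111).

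After TGF-beta1, cells that received vesicles and cells that did not had ER gene levels that the test could not separate. In 3D-EV cells against TGF-beta1 cells, edgeR called 0 of 41 members higher and 0 lower, with 0% of all genes called in either direction. At an unadjusted p below 0.05 there were 2 members, Dnajb9 and Ern1, among 1027 genes, and DESeq2 and limma-voom called 0 members. The 95% interval of the fold change lay between 0.8 and 1.25 for 38 of the 41 members, the exceptions being Ern1, Ero1b and Derl3. In TGF-beta1 cells against control cells, where 21 members were called, 32 of the 41 also had intervals within these limits. An interval within them therefore does not show an unchanged level. CPM ranges did not overlap for 3 members that were higher (Pdia6, Derl2 and Ssr3) and for 4 that were lower (Ern1, Sec61a1, Sec24d and Ero1b), against 6.8% and 6.83% of all genes.

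Creb3l1 had 80.5, 85.00 and 79.7 CPM in 3D-EV cells, against 81.2, 87.5 and 83.4 CPM in TGF-beta1 cells, overlapping groups (log2 fold change -0.040, 95% interval -0.13 to 0.051). Hspa5 had 2745, 2747 and 2497 CPM in 3D-EV cells, against 2701, 2553 and 2758 CPM in TGF-beta1 cells (log2 fold change -0.0043, 95% interval -0.11 to 0.10). For both genes the interval leaves out a change as large as that between TGF-beta1 and control cells. Atf6 had 99.5, 95.8 and 82.5 CPM in 3D-EV cells and 92.5, 90.8 and 95.4 CPM in TGF-beta1 cells (log2 fold change -0.0037, 95% interval -0.14 to 0.13). The member farthest from 0, leaving aside the sparse Derl3, was the sensor gene Ern1, with 4.79, 4.47 and 5.86 CPM in 3D-EV cells, against 7.62, 6.46 and 6.24 CPM in TGF-beta1 cells. Each 3D-EV library was below all TGF-beta1 libraries, but the difference was not called (log2 fold change -0.43, 95% interval -0.77 to -0.089, unadjusted p = 0.0168, adjusted p = 0.601), and it rests on 188, 157 and 197 counts in 3D-EV libraries, against 265, 230 and 227 in TGF-beta1 libraries. Dnajb9, a negative regulator of IRE1 in hamster and mouse cells, averaged 53.1 ± 2.01 CPM in 3D-EV cells and 48.2 ± 3.85 CPM in TGF-beta1 cells (log2 fold change 0.14, unadjusted p = 0.0255, adjusted p = 0.633). Derl3 held 15, 6 and 19 counts in 3D-EV libraries and 24, 20 and 28 in TGF-beta1 libraries, and its interval on the log2 scale was -1.76 to 0.052.

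In 2D-EV cells against TGF-beta1 cells, edgeR called 0 of 41 members higher and 0 lower, against 0% and 0.0282% of all genes. At an unadjusted p below 0.05 there were 2 members among 1007 genes, Derl2 and Creb3l2, and these were also the ones whose CPM ranges did not overlap, 1 higher and 1 lower, against 6.13% and 6.23% of all genes. DESeq2 and limma-voom also called 0 members. Derl2, a derlin of the ERAD channel, had 69.3, 71.96 and 73.03 CPM in 2D-EV cells, against 68.2, 69.1 and 64.03 CPM in TGF-beta1 cells (log2 fold change 0.090, adjusted p = 0.683). Creb3l2 had 149.5, 141 and 137 CPM in 2D-EV cells, against 155, 152 and 152 CPM in TGF-beta1 cells (log2 fold change -0.10, adjusted p = 0.537). Its highest 2D-EV library lay below its lowest TGF-beta1 library. Creb3l1 had 82.8, 80.4 and 85.5 CPM in 2D-EV cells and 81.2, 87.5 and 83.4 CPM in TGF-beta1 cells (log2 fold change -0.020, 95% interval -0.11 to 0.071). Hspa5 had 2457, 2625 and 2752 CPM in 2D-EV cells, against 2701, 2553 and 2758 CPM in TGF-beta1 cells (log2 fold change -0.033, 95% interval -0.13 to 0.069). The groups overlapped for both genes, and the fold-change interval lay between 0.8 and 1.25 for 39 of 41 members, all but Ern1 and Derl3. These limits are wide beside most changes after TGF-beta1, so this count does not show unchanged levels either.

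No member was called between the 2 vesicle preparations, which were given at the same particle number and for the same time. In 3D-EV cells against 2D-EV cells, edgeR called 0 of 41 members higher and 0 lower, against 0.00705% and 0% of all genes, and DESeq2 and limma-voom called 0 members. At an unadjusted p below 0.05 there were 2 members among 978 genes, Ern1 and Eif2ak3. CPM ranges did not overlap for 3 members that were higher (Pdia6, Sec23b and Ssr3) and 1 that was lower (Pdia4), against 5.67% and 5.68% of all genes. Ern1 had 4.79, 4.47 and 5.86 CPM in 3D-EV cells, against 5.31, 8.07 and 6.23 CPM in 2D-EV cells, where replicate 2 was the highest (log2 fold change -0.38, adjusted p = 0.692). Eif2ak3 had 54.02, 52.1 and 54.9 CPM in 3D-EV cells, against 53.1, 48.6 and 45.8 CPM in 2D-EV cells (log2 fold change 0.13, adjusted p = 0.682). Its groups overlapped. For Creb3l1 the interval of the log2 difference between the preparations was -0.11 to 0.071, for Hspa5 -0.074 to 0.13 and for Atf6 -0.088 to 0.18, and the fold-change interval lay between 0.8 and 1.25 for 39 members, all but Ern1 and Derl3. Neither an adjusted p above the threshold nor an interval within these limits shows that the preparations act alike. The 137 tested genes of the other ER lists also gave 0 calls in each of the 3 comparisons, with median log2 fold changes of 0.022 for 3D-EV against TGF-beta1 cells, -0.0027 for 2D-EV against TGF-beta1 cells and 0.020 for 3D-EV against 2D-EV cells.

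**Figure D5:**
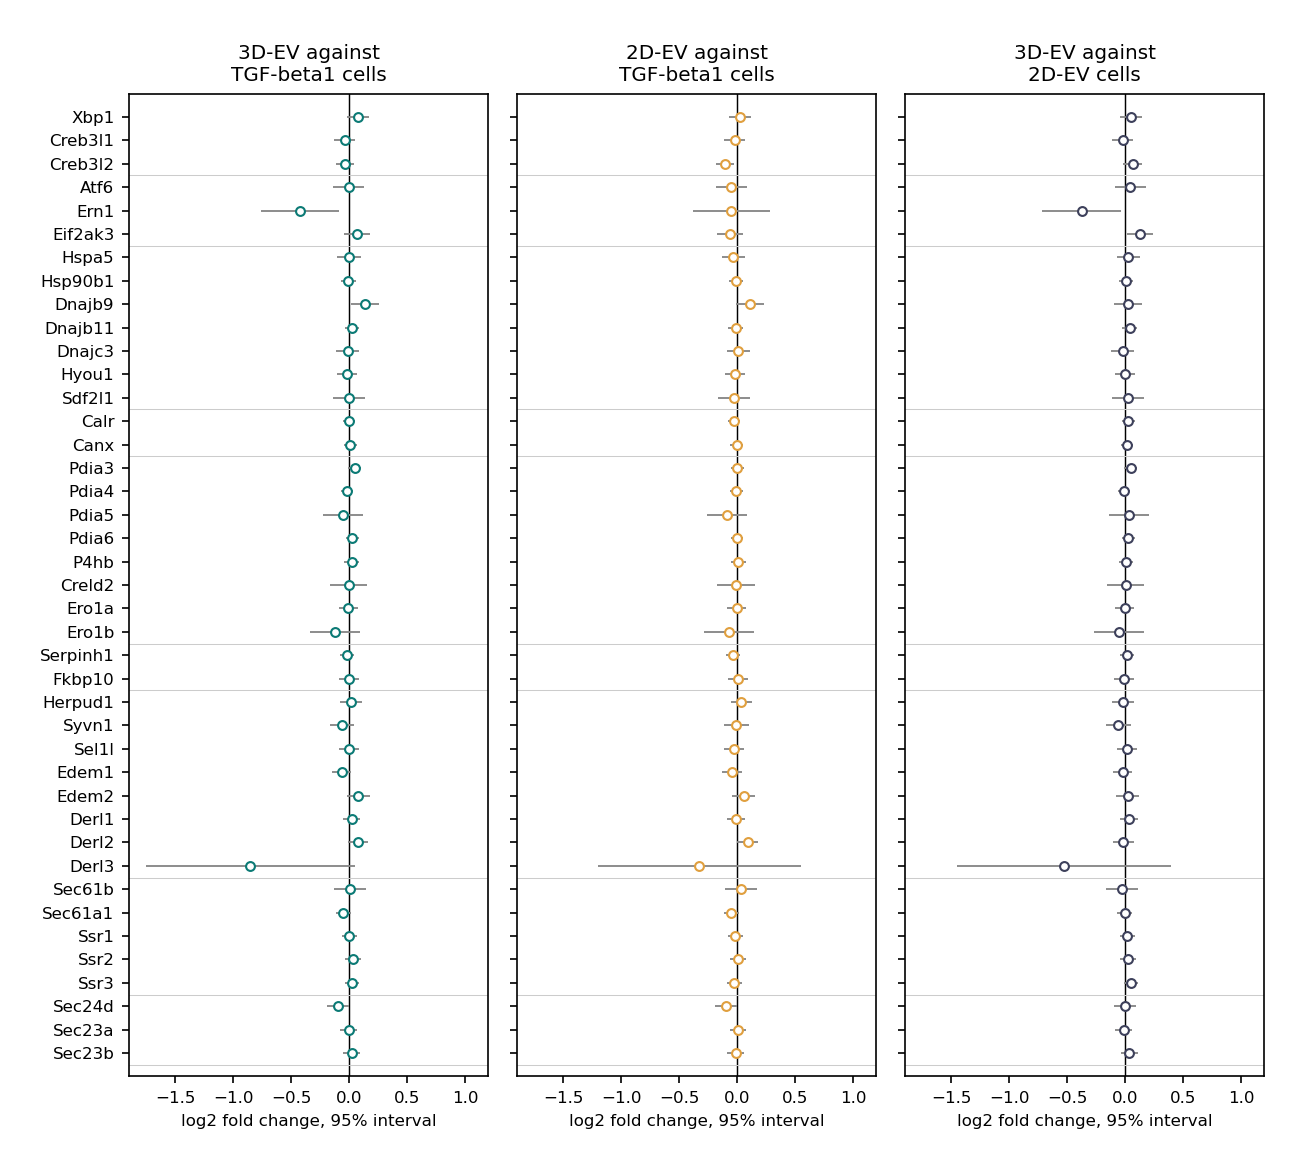
Log2 fold changes with 95% intervals of the 41 members in 3D-EV cells against TGF-beta1 cells, 2D-EV cells against TGF-beta1 cells and 3D-EV cells against 2D-EV cells. All points are open because none was called, most intervals are narrow around 0, and Ern1, Ero1b and Derl3 have the wide ones.

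Set against control cells, both vesicle groups had higher levels of ER genes. In 3D-EV cells 20 members were higher and 0 lower, against 12.2% and 10.8% of all genes. In 2D-EV cells 18 were higher and 1 lower, against 10.5% and 8.13% of all genes. These comparisons share the control libraries with that of TGF-beta1 cells, so their values are only set side by side. The log2 fold changes of Creb3l1 were 1.04 in 3D-EV cells, 1.06 in 2D-EV cells and 1.08 in TGF-beta1 cells, each against control cells. The log2 fold change against control cells was, for Hspa5, 0.29 in 3D-EV, 0.26 in 2D-EV and 0.30 in TGF-beta1 cells, and, for Dnajb11, 0.32 in 3D-EV, 0.28 in 2D-EV and 0.30 in TGF-beta1 cells. For Sel1l it was 0.26 in 3D-EV, 0.24 in 2D-EV and 0.27 in TGF-beta1 cells, and for Atf6 0.25 in 3D-EV, 0.21 in 2D-EV and 0.26 in TGF-beta1 cells. For P4hb it was 0.21 in 3D-EV, 0.20 in 2D-EV and 0.19 in TGF-beta1 cells, and for Serpinh1 0.091 in 3D-EV, 0.074 in 2D-EV and 0.11 in TGF-beta1 cells. Of these values, that of Serpinh1 in 2D-EV cells was not called (adjusted p = 0.0949). Its call in 3D-EV cells (edgeR adjusted p = 0.0327) was lost in 6 of 13 alternatives, among them with only the 2 groups in the fit (adjusted p = 0.0572) and without Control replicate 1 (0.0534), Control replicate 3 (0.122), TGF-beta1 + 3D-EVs replicate 2 (0.0588) or TGF-beta1 + 3D-EVs replicate 3 (0.135), with a range of 0.0117 to 0.135 over all 13. The call of Atf6 in 2D-EV cells (edgeR adjusted p = 0.0310) was lost in 4 of 13, without Control replicate 1, Control replicate 3, TGF-beta1 + 2D-EVs replicate 2 or TGF-beta1 + 2D-EVs replicate 3, with a range of 0.00725 to 0.148. By role, 4 of 7 ER chaperones, 2 of 8 disulfide enzymes, 4 of 8 ERAD genes, 3 of 5 translocon genes and 1 of 3 COPII genes were higher in 3D-EV cells than in control cells, and the counts by these 5 roles were equal in 2D-EV cells against control cells. Those of 2 other roles were not: among bZIP factors 2 were higher and 0 lower in 3D-EV cells against control cells, and 1 higher and 1 lower in 2D-EV cells against control cells, and of the collagen chaperones 2 of 2 were higher in 3D-EV cells and 1 of 2, Fkbp10, in 2D-EV cells. These differences in counts were not tested. The equal counts rest partly on narrow calls. In 2D-EV cells against control cells, the call of Sec23b was kept in 2 of 13 alternatives, that of Derl1 in 5, and those of Edem2 and Hyou1 in 8 each. In 3D-EV cells against control cells, Sec23b and Derl1 were kept in all 13, Edem2 in 11 and Hyou1 in 7.

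Xbp1 had 95.99, 104 and 103 CPM in 3D-EV cells, 93.2, 97.1 and 103 CPM in 2D-EV cells, 93.6, 97.3 and 96.9 CPM in TGF-beta1 cells and 94.6, 88.1 and 91.1 CPM in control cells. It was called against control cells in 3D-EV cells (log2 fold change 0.15, SE 0.045, edgeR adjusted p = 0.0259), with an adjusted p of 0.104 without Control replicate 2, 0.0676 without Control replicate 3, 0.108 without TGF-beta1 + 3D-EVs replicate 2 and 0.0858 without TGF-beta1 + 3D-EVs replicate 3 (0.0121 to 0.108 over the alternatives), but not in the other 2 groups, and the tests between those groups above did not call it. Creb3l2 was the member called lower in 2D-EV cells than in control cells (149.5, 141 and 137 CPM in 2D-EV cells, against 149, 157 and 157 CPM in control cells). The groups overlapped by the highest 2D-EV library. The change was small (log2 fold change -0.12, SE 0.037, edgeR adjusted p = 0.0381), and the call was lost in 6 of 13 alternatives, among them with an adjusted p of 0.0877 with only the 2 groups in the fit, 0.117 without Control replicate 2, 0.122 without Control replicate 3, 0.105 without TGF-beta1 + 2D-EVs replicate 2 and 0.151 without TGF-beta1 + 2D-EVs replicate 3 (0.0115 to 0.151 over all 13). Of the 137 tested genes of the other ER lists, 64 were higher and 5 lower in 3D-EV cells than in control cells, against 12.2% and 10.8% of all genes. In 2D-EV cells against control cells, 57 of them were higher and 5 lower, against 10.5% and 8.13% of all genes.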

How the data were processed

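RNA of 12 NRK-52E cultures was extracted with TRIzol, treated with DNase I and turned into libraries using a Hieff kit (Yeasen), per the labels. The deposited values are whole numbers per gene and were taken to be raw counts that the authors made without normalization. The submitters' processing notes name fastp, HISAT2, StringTie, DESeq2 and the build mRatBN7.2; no source used here gives versions, counting settings, strand handling or the annotation release. The 12 per-library tables were identical to the joint table.

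The analysis used edgeR 4.0.16 in R 4.3.3: filterByExpr with a minimum count of 10 kept 14184 of 24660 genes, TMM factors ran from 0.983 to 1.03, and a single fit of 4 group means to all 12 libraries was tested with the quasi-likelihood F-test in 6 comparisons. Benjamini-Hochberg adjustment ran over all genes tested, and calls were made below 0.05. SE is the log2 fold change divided by the square root of F, and intervals use the t distribution of the fit. CPM were computed from the counts and TMM-scaled; gene lengths are not in the table, so levels are not compared between genes. With libraries of 32888125 to 39754319 counts, 3 counts correspond to 0.0764 to 0.0916 CPM. Chi-square tests between replicates gave 6.66 to 10.6 per degree of freedom, above counting noise, so none was merged. The script was tested on simulated data with known changes.

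Members with an adjusted p below 0.05 in TGF-beta1 against control cells, or between groups that received TGF-beta1, are given by library and the others by mean or range; of the other ER lists, up to 2 higher and 2 lower genes with the smallest p per list are named. Ern1, Dnajb9, Derl2, Creb3l2, Eif2ak3, Pdia6, Creld2 and Xbp1 were singled out after their values were seen. Members and lists were chosen with earlier results of these data known. Promoter sequences are those of RefSeq (GRCr8), matched by symbol. The labels name no sequencing batch. Alternatives were DESeq2 1.42.0, limma-voom (limma 3.58.1), other size factors, other count filters, fits of 2 groups, a replicate block and leaving out each library.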

Additional observations from a re-analysis of the deposited data

How the results depend on the processing

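Each comparison was repeated under 13 alternatives. In TGF-beta1 cells against control cells, the number of members called higher was 21, and 19 to 22 with other size factors, tests, filters, a replicate block or a fit of 2 groups. Leaving out 1 library in turn gave 14 to 19 members higher (14 without TGF-beta1 replicate 3), 0 to 1 lower, 2419 to 2555 of all genes called (3124 with all libraries) and a member median of 0.11 to 0.14. Against control cells it gave 16 to 20 higher, 0 to 1 lower, 2408 to 2679 genes and a median of 0.11 to 0.13 for 3D-EV cells, and 12 to 19 higher (12 without TGF-beta1 + 2D-EVs replicate 3), 0 to 1 lower, 2006 to 2311 genes and a median of 0.10 to 0.13 for 2D-EV cells. The 1 member lower in 2D-EV cells than in control cells became 0 with a replicate block and 0 with only the 2 groups in the fit. Between groups that had all received TGF-beta1, 0 members were called in any alternative, while counts over all genes changed. For 3D-EV against TGF-beta1 cells they were 0, 13 with DESeq2 and 0 to 2 without 1 library (median -0.011 to 0.012). For 2D-EV against TGF-beta1 cells they were 4, 56 with DESeq2, 9 with limma-voom, 14 with no filter on low counts, 7 with only the 2 groups and 1 to 3 without 1 library (median -0.025 to -0.00029). For 3D-EV against 2D-EV cells they were 1, 21 with DESeq2, 2 with limma-voom, 8 with no filter, 2 with a replicate block, 2 with only the 2 groups and 1 to 3 without 1 library (median -0.0032 to 0.022). The cause was not tested. Over the members called against control cells in at least 1 of these analyses, 844 values under the alternatives kept their side of the threshold, 93 lost a call, 25 gained one and 0 changed sign; signs of single members between the groups that received TGF-beta1 were not followed. Same-numbered libraries of different groups had residual correlations of -0.066 to 0.045, 0 of 18 above 0.1; the best partner of a library bore its own number for 5 of 12, and the samples share only a number. The block took the members called higher in TGF-beta1 cells to 20, with Ero1a at an adjusted p of 0.0751, and for 2D-EV against control cells it put Creb3l2 at 0.0621, and for 3D-EV against control cells Serpinh1 at 0.0550. Depth limits Derl3 and Ern1, and intervals cover counting error and the spread between libraries.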
